A study of Arabidopsis thaliana with 11 samples.

Results

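The genes described here are those carried by the chloroplast chromosome of Arabidopsis thaliana, read in stigma, ovary and whole seedling. They were found on the Affymetrix ATH1 array by the position of a probe set in the array's numbering and by a gene symbol that starts with one of the usual plastid stems (psa, psb, pet, ndh, atp, rbcL, rpo, rps, rpl, ycf, acc, clp, mat, cem or ccs). The rule uses no measured value, but the choice was made with earlier results of these data known. The rule found 74 probe sets. One of them, annotated to a pair of genes that the reference gene table does not place on the plastid chromosome, was set aside. The 73 that remained, of 22746 probe sets other than controls, read 72 genes, because rps12 has 2 probe sets. The reference table lists 78 plastid protein genes. Among those without a named probe set, psbA and matK are not analysed here.

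The chloroplast chromosome keeps a small set of genes from the cyanobacterial ancestor of the plastid. Its protein genes build the core of the photosynthetic membrane complexes and of the plastid's own gene expression machinery, and nuclear genes supply the other subunits of the same complexes. Most are cotranscribed in long units that are then cut and edited. A bacterial type RNA polymerase, whose core is itself encoded in the plastid, reads the photosynthesis genes, and a phage type polymerase imported from the nucleus reads several housekeeping genes. Plastids of green leaf cells are chloroplasts, while those of other plant cells are often smaller and less active.

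The study compared 3 stigma, 4 ovary and 4 seedling arrays, all of the accession Landsberg erecta with no transgene or treatment named. Stigmas and ovaries came from flowers emasculated at bud stage 8. Their pistils were taken 1 day later and cut apart with scissors. Seedlings were grown for 10 days on Murashige and Skoog plates and taken whole, so they mix green cotyledons and leaves with roots. Nothing says that arrays of one tissue came from separate plantings, so the p-values below measure only how these samples spread, and that spread may be technical. Signals are linear intensities that the authors had scaled to one trimmed mean per array. Each difference below is between means of log2(signal + 17.2), a scale that shrinks the differences of weak signals, and comes with the standard error (SE) of a limma fit over all 11 arrays. A member is called where its Benjamini-Hochberg adjusted p over 15524 tested probe sets was under 0.05 and the difference at least 2-fold. All 73 members passed the filter on low signal, and 68 of them exceeded its level on every array.

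The arrays were scanned in 4 periods, called runs A to D. The first stigma was scanned with ovaries 1 and 2 (run A) and the other stigmas with ovaries 3 and 4 (run B). Seedlings 1 and 2 made up run C, and seedlings 3 and 4 run D. Seedlings thus share no run with the pistil parts, and run and tissue cannot be told apart in either comparison with seedling. The labels also name the source of seedlings 3 and 4 as plant and not as seedling. Chip lot 1 held the arrays of run A and seedling 1, and lot 2 those of run B and seedling 2. Seedlings 3 and 4 were alone in lot 3. Run, lot and source label therefore cannot be told apart where seedlings of run D are set against other arrays. The tissue labels held against their markers. The stigma transcript AT5G19880 had 19204.1, 14522.5 and 14090.3 signal units in stigmas, against 84.1 to 1802.0 in ovaries and 3.3 to 17.4 in seedlings. The 1802.0 was that of ovary 1, which also had 3960.3 for the other stigma marker, AT2G33850, where ovaries 2 to 4 had 79.2 to 94.6. The ovule regulator INO had 136.9 to 247.4 in stigmas, 515.9 to 605.1 in ovaries and 110.3 to 272.4 in seedlings. The root transcript PYK10 had 12294.3 to 16435.6 in seedlings and at most 154.5 in either pistil part.

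Many chloroplast-encoded transcripts were lower in both pistil parts than in seedlings, though the counts depended on which seedlings were used. Against seedling, 44 of 73 members were called lower in ovary and none higher. The shares of all tested probe sets called in that comparison were 11.7% lower and 11.1% higher. The median difference of the members was -1.16, while that of all tested probe sets was 0.12. In stigma 26 of 73 were called lower than in seedling and none higher, against 15.1% of all tested probe sets lower and 11% higher. Their median was -0.83 in stigma, and that of all tested probe sets 0.04. Without stigma 3 the stigma count was 15, and without seedling 1 it was 17. In 22 members the call was made in both pistil parts, against 8.95% of all tested probe sets. In none of the 3 comparisons of tissues were 23 members called, against 62.5% of all tested probe sets. Of the 41 probe sets for photosystems, cytochrome b6f, NDH and ATP synthase, 17 were called lower in stigma and 33 in ovary. Of the 23 for ribosome and RNA polymerase, 6 were called lower in stigma and 4 in ovary. The medians of these groups, in that order, were -0.83 and -0.81 in stigma, and -1.31 and -0.80 in ovary. The groups thus stood close together in stigma and further apart in ovary. By mean signal, 47 members ran ovary, stigma, seedling from low to high, 22 ran stigma, ovary, seedling, 3 ran ovary, seedling, stigma, and 1 ran stigma, seedling, ovary. In bulk tissue, fewer cells or plastids and less RNA in each cannot be told apart. The labels do not name the primer used for labelling, and plastid transcripts carry no long poly(A) tail, so the captured share of them is also unknown.

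**Figure D1:**
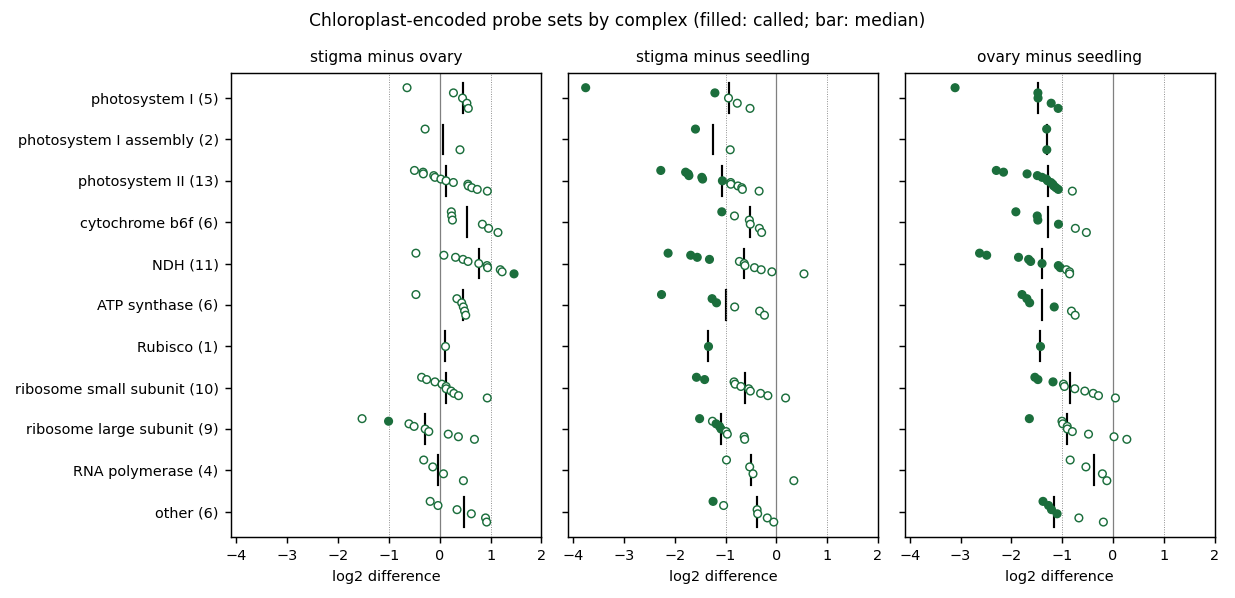
Log2 difference (x axis) of each of the 73 probe sets for stigma minus ovary, stigma minus seedling and ovary minus seedling, in rows by complex with the number of probe sets. Each point is 1 probe set, filled where it was called, the bar is the complex median, and dotted lines mark 2-fold. Against seedling nearly all points lie left of 0 and all filled ones do, while stigma and ovary straddle 0 with 2 filled points.

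Without overlap between the arrays, 40 members were lower in every ovary than in every seedling, against 18.8% of all tested probe sets. For stigma and seedling the count was 28, against 24.2% of all tested probe sets. In 25 members every stigma and every ovary lay below every seedling, against 14.4% of all tested probe sets.

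The seedling level itself differed between runs C and D, which also differ in chip lot and source label. All 73 members had a lower mean in the seedlings of run D than in those of run C, with a median difference of -0.82, while that of all tested probe sets was -0.04. In 69 members both seedlings of run D lay below both of run C. With 2 arrays a side, 21 members were called lower and none higher, where 1.97% of all tested probe sets were called lower and 2.47% higher. Taken with run C seedlings only, 57 members were called lower in ovary (12.0% of all tested probe sets) and 45 in stigma (15.6%). Taken with run D seedlings only, 18 were called lower in ovary (12.5% of all tested probe sets) and 8 in stigma (15.0%), and 1 was higher in each. The 8 in stigma are a smaller share of the 73 members than the 15.0% of all tested probe sets. The 18 and the 8 were also called with run C seedlings. The medians against run D seedlings alone were -0.72 in ovary and -0.45 in stigma. Of the 41 photosystem, cytochrome b6f, NDH and ATP synthase probe sets, 7 were then called lower in stigma and 16 in ovary. Of the 23 for ribosome and RNA polymerase, 1 was then called lower in stigma and 2 in ovary.

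Photosystem I takes electrons from plastocyanin and passes them to ferredoxin. Its reaction centre is the pair of large proteins encoded by psaA and psaB. The transcript of psaA had 693.4, 764.8 and 909.1 signal units in stigmas and 1368.1, 1284.3, 1406.5 and 942.1 in ovaries, against 13279.0, 12894.1, 7020.5 and 11256.8 in seedlings. Every stigma and every ovary lay far below every seedling, and stigmas lay below ovaries. Its mean was 789.1 ± 109.9 in stigmas (SD, n = 3), 1250 ± 211.7 in ovaries (SD, n = 4) and 11110 ± 2865 in seedlings (SD, n = 4). The difference from seedling was -3.75 (SE 0.22, adjusted p = 1.6e-08), or 13.5-fold lower, in stigma and -3.11 (SE 0.20, adjusted p = 5.6e-08), or 8.62-fold lower, in ovary. No other member differed as much from seedling in either tissue. Against run D seedlings alone, it was -3.47 in stigma and -2.83 in ovary.

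The other photosystem I genes had smaller differences. The partner of psaA, psaB, had 7408.5 to 11431.8 in stigmas and 4627.7 to 7973.8 in ovaries, against 13272.9 to 19672.5 in seedlings. The psaB difference was -1.48 in ovary, which was called, and -0.94 in stigma, which fell short of 2-fold. The small subunit gene psaJ was called lower in both, at -1.21 in stigma and -1.48 in ovary. Of the photosystem genes it had the smallest difference between seedling runs, at -0.04 for run D minus run C. The iron-sulphur subunit gene psaC and psaI were called in ovary, at -1.22 and -1.08, and had -0.77 and -0.52 in stigma. In all, 5 of 5 subunit genes were called lower in ovary and 2 of 5 in stigma, and 3 and 2 of them with run D seedlings only. The assembly factors ycf3 and ycf4, which are needed to put the complex together but are no part of it, were both called lower in ovary, and ycf4 also in stigma. Neither was called when only run D seedlings were used.

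**Figure D2:**
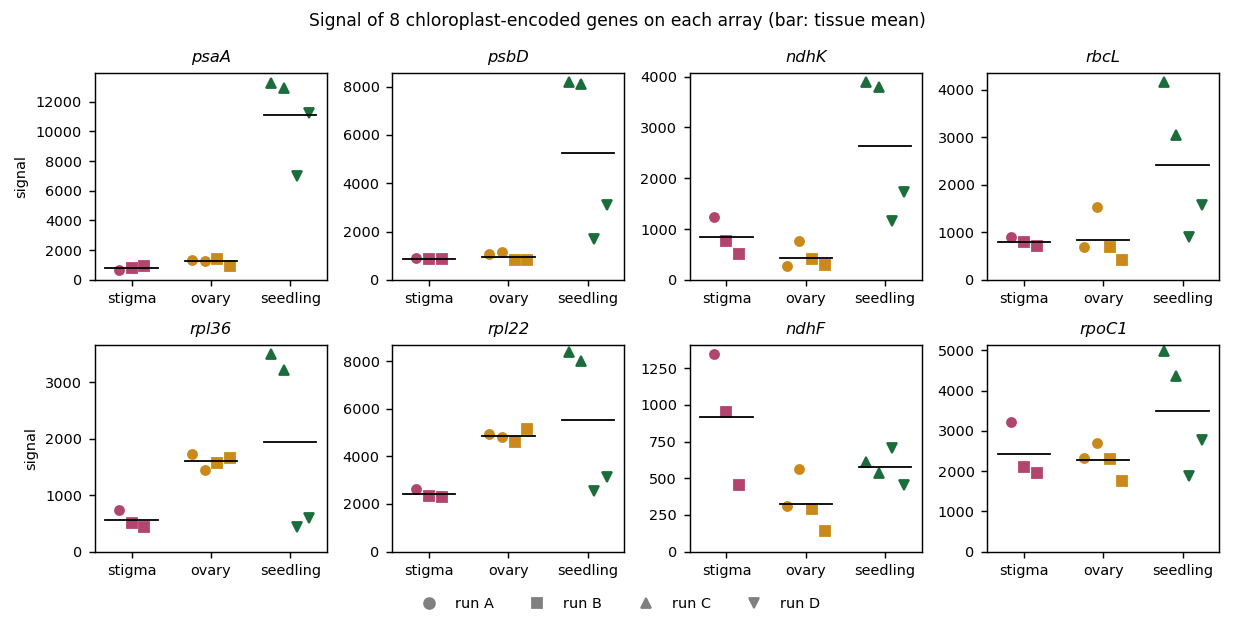
Signal (y axis, linear, from 0) of 8 chloroplast-encoded genes on each stigma, ovary and seedling array. Each symbol is 1 array, its shape shows the run, and the bar is the tissue mean. All stigmas and ovaries sit below all seedlings for psaA and psbD, and for ndhK all but stigma 1 do. For rpl36 and rpl22 the stigmas sit below the ovaries and the seedlings split by run.

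Photosystem II splits water and starts the electron transport chain. Its reaction centre protein D2 is encoded by psbD, and psbB and psbC encode the inner antenna proteins CP47 and CP43. The psbD transcript had 914.4, 865.1 and 854.3 in stigmas, 1059.2, 1144.8, 834.3 and 819.9 in ovaries and 8187.1, 8107.7, 1674.3 and 3102.8 in seedlings. No pistil array reached the lowest seedling, and the seedlings of run D stood between the others and those of run C. The difference was -2.28 (SE 0.43, adjusted p = 6.4e-04) in stigma and -2.16 (SE 0.40, adjusted p = 5.4e-04) in ovary. Set against run D seedlings it was -1.36 in stigma and -1.24 in ovary, and both were called.

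The gene psbB had 1990.5, 1724.2 and 1123.3 in stigmas and 701.6 to 2188.0 in ovaries, against 10506.8, 9441.4, 2011.2 and 3836.5 in seedlings. Its ovary difference of -2.30 was the largest of the complex in that tissue, although ovary 2 overlapped the lowest seedling. Its neighbour psbH, a small phosphoprotein of the complex, had 2338.1 to 2909.7 in stigmas and 3494.5 to 4107.1 in ovaries, against 6644.4 to 11154.4 in seedlings, with no overlap between any pair of tissues. It was called lower in stigma (-1.79) and in ovary (-1.29), also with run D seedlings only. The genes psbE and psbF encode the subunits of cytochrome b559. They differed by -1.72 and -1.45 in stigma and by -1.40 and -1.12 in ovary, all called. Of the other genes with a psb symbol, psbT (-1.69), psbN (-1.31), psbI (-1.22), psbL (-1.19), psbZ (-1.17) and psbM (-1.08) were called in ovary, and psbL (-1.06) also in stigma. Over the group, 12 of 13 psb genes were called lower in ovary, with psbJ the exception at -0.80, and 7 of 13 in stigma. The smallest stigma difference was that of psbM, at -0.34. With run D seedlings only, 4 of the 13 were called lower in stigma and 7 in ovary.

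The cytochrome b6f complex links the photosystems. In ovary 4 of its 6 plastid genes were called lower, with a median of -1.28, and in stigma 1 of 6, with a median of -0.52. That gene, petL, had 2489.1, 2110.1 and 1379.1 in stigmas, 1120.2, 1624.6, 1028.0 and 712.5 in ovaries and 5418.7, 4229.5, 3420.6 and 3587.9 in seedlings. Its difference was -1.07 in stigma and -1.91 in ovary, and no pistil array reached a seedling. Cytochrome b6, from petB, differed by less, at -0.52 in stigma and -0.74 in ovary. The other genes called in ovary were petN (-1.49), petD (-1.48) and petG (-1.07), none of which was called in stigma. Cytochrome f, from petA, had 4866.1 to 6269.6 in stigmas and 4093.6 to 4914.8 in ovaries. Seedlings of run D, at 3496.8 and 3600.9, lay below all of these, and seedlings of run C, at 12705.8 and 11653.7, far above. Against run D seedlings alone, the complex median was -0.02 in stigma and -0.67 in ovary, with none called in stigma and 1 in ovary.

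The NDH complex returns electrons from ferredoxin to the plastoquinone pool around photosystem I. In ovary 8 of its 11 plastid genes were called lower than in seedling, and in stigma 4 of 11, with medians of -1.40 and -0.63. The largest ovary differences belonged to the neighbours ndhJ (-2.63) and ndhK (-2.49), which encode subunits of the arm that projects from the membrane. The ndhK transcript had 1238.4, 756.1 and 508.2 in stigmas, 279.8, 762.8, 416.6 and 291.4 in ovaries and 3888.0, 3798.0, 1161.0 and 1728.3 in seedlings. Only stigma 1 overlapped a seedling. The third gene of the same unit, ndhC, differed by -1.08 in ovary and -0.62 in stigma. In stigma the largest difference was that of ndhH (-2.13), whose signals there spread from 57.3 to 465.0. The membrane subunit gene ndhF was the 1 NDH gene with a positive difference in stigma, at 0.54 with adjusted p = 0.28. The membrane subunit gene ndhA was called in both, at -1.32 in stigma and -1.40 in ovary. The genes ndhE (-1.86), ndhG (-1.62) and ndhI (-1.04) were called in ovary, while ndhB and ndhD, both at -0.86, and ndhF at -0.92 stayed under 2-fold. With run D seedlings only, 3 NDH genes were called lower in ovary and none in stigma (medians -0.96 and -0.49).

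The ATP synthase makes ATP from the proton gradient over the thylakoid. Its plastid genes lie in separate units, and those units differed. In atpB and atpE, which encode the beta and epsilon subunits of the catalytic head, the ovary differences were -0.82 and -0.75 and the stigma differences -0.33 and -0.24, and none was called. In the unit with atpI, atpH, atpF and atpA, all 4 were called lower in ovary and all but atpA in stigma. The ribosomal gene rps2, taken as part of the same unit, was called in neither, at -0.70 in stigma and -0.98 in ovary. The stator gene atpF had 1029.4, 1277.2 and 2037.5 in stigmas, 2232.4, 1537.0, 2295.9 and 1761.8 in ovaries and 8744.3, 7881.5, 4704.6 and 6301.5 in seedlings. All pistil arrays lay below all seedlings. Its difference was -2.26 in stigma (SE 0.25, adjusted p = 6.8e-06) and -1.79 in ovary (SE 0.23, adjusted p = 3.1e-05), called in both with run D seedlings only. Of the 6 genes, 1 was called in stigma and 2 in ovary with run D seedlings only, with medians of -0.70 and -1.09. No ATP synthase gene was called between the seedling runs.

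The large subunit of Rubisco, which fixes carbon dioxide, is encoded by rbcL. It had 911.1, 787.9 and 710.3 in stigmas, 684.7, 1535.5, 688.1 and 422.2 in ovaries and 4159.2, 3051.4, 894.6 and 1571.1 in seedlings. Seedling 3 fell among the pistil arrays. The gene was called lower in stigma (-1.35, adjusted p = 0.028) and in ovary (-1.45, adjusted p = 0.013), but in neither with run D seedlings only (-0.56 and -0.66).

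The plastid ribosome was the largest group, with 10 probe sets for its small subunit and 9 for its large subunit. In ovary 4 of the 19 were called lower and in stigma 6, with medians of -0.90 and -0.83. Against run D seedlings alone, these medians were -0.31 and -0.28. The 2 probe sets of rps12, whose message is joined by trans-splicing, gave close values. They differed by -1.57 and -1.41 in stigma and by -1.48 and -1.54 in ovary, and all 4 values were called. The first of the pair had 345.1, 423.3 and 303.0 in stigmas, 271.4 to 486.4 in ovaries and 704.2 to 1522.3 in seedlings, so no pistil array reached a seedling. In the small subunit rps7 was the other gene called in ovary (-1.18), while the uncalled genes ran from -0.98 for rps2 to 0.05 for rps18. In the large subunit only rpl20 was called in ovary (-1.65), while rpl14 (-1.51), rpl16 (-1.19), rpl33 (-1.12) and rpl23 (-1.09) were called in stigma. None of those 4 was called in ovary. With run D seedlings only, the calls left in the ribosome were rps12 by 1 probe set in stigma and by both in ovary, beside rpl36, described further on.

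The plastid RNA polymerase had no gene called in either comparison with seedling. Its alpha subunit gene rpoA had 4527.8, 3450.8 and 3037.6 in stigmas, 2901.9, 4192.0, 2360.8 and 1635.7 in ovaries and 6176.6, 4792.4, 1657.0 and 1343.0 in seedlings. Seedlings of run C lay above every pistil array but those of run D below nearly all. Against run D seedlings alone, rpoA was called higher in stigma, at 1.27 (adjusted p = 0.0046), and had 0.81 in ovary. The beta subunit gene rpoB differed by -0.98 in stigma (adjusted p = 0.092) and -0.84 in ovary (adjusted p = 0.11). For rpoC1 and rpoC2, which encode the remaining core subunits, the values were -0.46 and -0.53 in stigma and -0.53 and -0.21 in ovary. The median of the 4 genes was -0.49 in stigma and -0.37 in ovary. It was -1.12 and -1.05 with run C seedlings only, and 0.13 and 0.25 with run D seedlings only.

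Of the 6 remaining genes, 4 were called lower in ovary and 1 in stigma. The acetyl-CoA carboxylase subunit gene accD, part of fatty acid synthesis, had 2128.5, 1569.7 and 1213.6 in stigmas, 1270.9, 2095.4, 1184.6 and 790.0 in ovaries and 5895.1, 4962.7, 1495.6 and 2690.5 in seedlings. Its ovary difference of -1.38 was called and its stigma difference of -1.04 was not (adjusted p = 0.054). The envelope protein gene cemA was called in both, at -1.25 in stigma and -1.21 in ovary, and the cytochrome maturation gene ccsA in ovary alone (-1.27). With run D seedlings only, none of the 6 was called. The protease subunit gene clpP had -0.05 in stigma and -0.67 in ovary. Of the very long reading frames ycf1 and ycf2, which have been linked to protein import, ycf2 was called lower in ovary (-1.10) and ycf1 was not (-0.19). In stigma they had -0.38 for ycf1 and -0.18 for ycf2.

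Within the pistil few members passed the test. Between stigma and ovary 1 was called higher and 1 lower in stigma, where 6.27% of all tested probe sets were called higher and 9.51% lower. The median over the members was 0.27 and over all tested probe sets -0.07. The count of higher members rested on single arrays, being 0 without stigma 1, 8 without stigma 3 and 11 without ovary 2. With the run as a block it was 9. The share of all tested probe sets called in those fits was not counted, so these counts cannot be read as many or few. Arrays of both tissues did not overlap for 5 members higher in stigma and 7 lower, against 18.2% and 27.0% of all tested probe sets. NDH genes had the highest complex median (0.77), with 10 of 11 values positive. Without stigma 1 it was 0.41, and the median over all members 0.12. Cytochrome b6f genes were positive in 6 of 6 (median 0.54), and ATP synthase genes in 5 of 6 (median 0.45). The median was 0.45 for photosystem I, 0.12 for photosystem II and -0.03 for the RNA polymerase, where it was 0.06 with equal array medians and 0.02 with quantile normalization. In the ribosome the small subunit had 0.12 and the large subunit -0.29.

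The gene called higher in stigma was ndhF. It had 1349.1, 955.1 and 452.9 in stigmas and 309.4, 563.0, 293.7 and 140.9 in ovaries, so stigma 3 overlapped ovary 2. The difference was 1.46 (SE 0.40, adjusted p = 0.011), or 2.75-fold. It was 1.65 within run A and 1.61 within run B. Without stigma 1 it was 1.12 (adjusted p = 0.065).

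Within stigmas and within ovaries, the array with the highest RNA quality ratio also had the highest signal for most members. It is the log2 of 3' over 5' signal for control transcripts, and a high value means that the 5' part of these transcripts gave less signal. It was 2.25, 1.41 and 1.17 on stigmas 1 to 3 and 0.89, 1.26, 0.74 and 0.70 on ovaries 1 to 4. Seedlings had 0.64, 0.50, 0.85 and 0.79, higher in run D, where all 73 members were lower, than in run C. Stigma 1, with the highest ratio, held the highest stigma signal for 61 of 73 members. Ovary 2, with the highest ratio of its tissue, held the highest ovary signal for 50. With the ratio as a covariate no member was called between stigma and ovary, the median over members was -0.05, and ndhF had 0.44 (adjusted p = 0.44). With that covariate 24 members were called lower than seedling in stigma, 15 of them among the 26 called without it. In ovary it was 49, which held all 44 called without it. Its part in the differences was not tested.

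**Figure D3:**
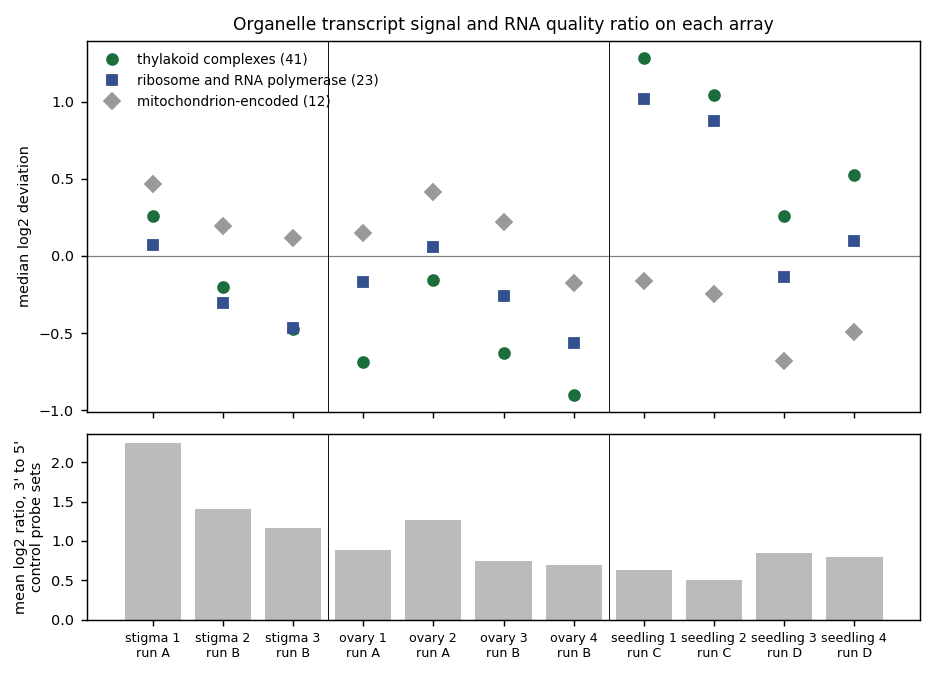
Top, median log2 deviation (y axis) of 41 thylakoid probe sets, 23 ribosome and RNA polymerase probe sets and 12 mitochondrion-encoded probe sets on the 11 arrays. Each deviation is from the average of the tissue means of that probe set. Bottom, mean log2 ratio of 3' to 5' control probe sets (bars), for the same arrays in the order stigma, ovary, seedling. Stigma 1 has the highest ratio at 2.25, and seedlings of run C have the highest chloroplast medians.

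Several members lower in stigma than in ovary lay in one cluster of ribosomal protein genes. In rpl22, the gene called lower, stigmas had 2632.2, 2326.2 and 2290.5 and ovaries had 4928.3, 4793.6, 4614.7 and 5142.2. The ranges stood well apart, and the difference was -1.01 (SE 0.34, adjusted p = 0.036). It was -0.88 within run A and -1.07 within run B. The call was lost whichever single stigma or ovary was left out. In rpl36 stigmas had 735.4, 506.3 and 426.5 and ovaries 1728.4, 1447.0, 1573.2 and 1650.3, again apart. That difference was larger, at -1.53, or 2.89-fold lower, with SE 0.59 and adjusted p = 0.060.

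Seedlings of these genes split by run more than stigmas and ovaries spread, and the fit over all 11 arrays counts that split as error. For rpl36 seedlings had 3507.9, 3223.9, 443.2 and 591.6. With the pistil arrays alone the adjusted p was 2.8e-05 for rpl36 and 2.2e-05 for rpl22, and rpl36 was then called. In rpl23, at the other end of the cluster, stigmas had 5121.1, 4868.0 and 5670.2 and ovaries 7231.4 to 8890.6, a difference of -0.61 (adjusted p = 0.0051) that stayed under 2-fold. Their neighbour rpl2 ran the other way, at 0.37, with stigmas above ovaries on every array. With the RNA quality covariate rpl36 had -1.30 and rpl22 -0.79, and neither was called (adjusted p = 0.30 and 0.27).

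**Figure D4:**
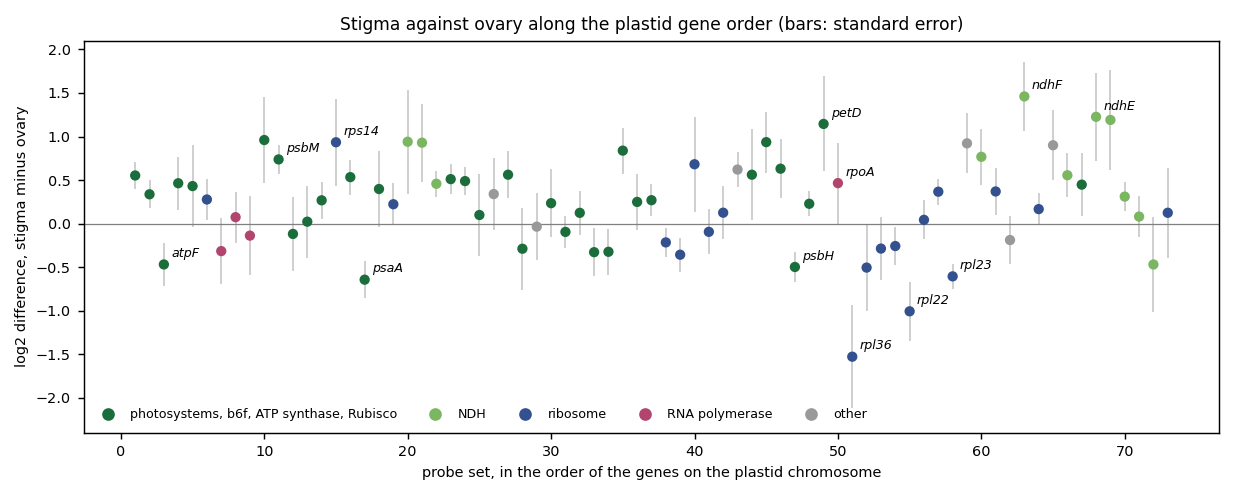
Log2 difference of stigma minus ovary (y axis) for the 73 probe sets in the order of their genes on the plastid chromosome (x axis, rank), with standard errors as bars and colours by complex. The lowest values, those of rpl36 and rpl22, lie near each other among other ribosomal genes, and several NDH genes lie among the highest, with ndhF at 1.46.

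Beyond these, 10 members had an adjusted p under 0.05 between stigma and ovary but stayed under 2-fold. The share of all tested probe sets that did so was not counted, so whether 10 is many or few cannot be said. They were psbM, petL, clpP, psbI, atpE, atpB and ndhC, with positive values from 0.46 to 0.84, and psaA, rpl23 and psbH, with negative ones. The transcript of psbM, a small photosystem II subunit, had 15394.7, 12502.5 and 11445.0 in stigmas, against 6695.2, 7957.9, 10370.5 and 6701.4 in ovaries (0.74, adjusted p = 0.0038). The reaction centre gene psaA went the other way, as given above, with a difference of -0.64 (adjusted p = 0.034). For psbH it was -0.50 (adjusted p = 0.036).

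The difference between seedling runs was uneven over the complexes. It was called for 3 of 4 RNA polymerase genes (median -1.44), 5 of 9 large ribosomal subunit genes (-1.47), both photosystem I assembly genes and rbcL (-1.57). It was called for 3 of 13 photosystem II genes, which were psbB, psbC and psbD, for 2 of 6 cytochrome b6f genes and for 1 of 11 NDH genes. For photosystem I (median -0.56) and the ATP synthase (-0.48) it was called for none of 5 and none of 6. The members with the largest values were rpl36 (-2.67, SE 0.17, adjusted p = 6.2e-05), ycf4 (-2.09), rpl14 (-1.89) and rpoA (-1.85). In rpl36 the seedlings of run D, at 443.2 and 591.6, lay at the level of the stigmas. Against run D seedlings alone, rpl36 was called higher in ovary than in seedling, at 1.61 (adjusted p = 5.0e-05).

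**Figure D5:**
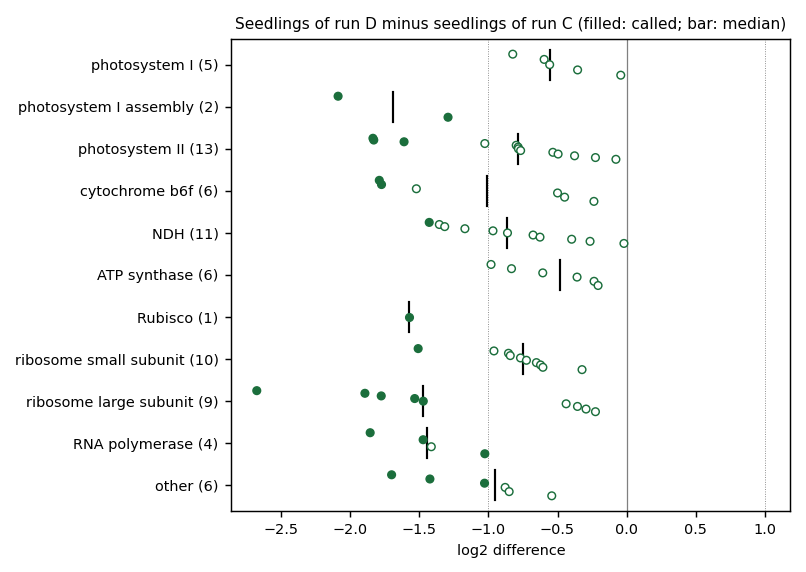
Log2 difference between seedlings of run D and seedlings of run C (x axis, 2 arrays each) for the 73 probe sets, in rows by complex. Filled points were called and the bar is the complex median. All points lie left of 0, from -2.67 for rpl36 to -0.02 for ndhF.

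Genes that are thought to share one primary transcript did not always share one difference. These units were taken from textbook knowledge after the values had been seen, and are described only. In the unit psaA, psaB and rps14, the values against seedling were -3.75, -0.94 and 0.18 in stigma and -3.11, -1.48 and -0.75 in ovary. The first gene thus stood far below the others. In psbD, psbC and psbZ the stigma values were -2.28, -1.47 and -0.90 and the ovary values -2.16, -1.49 and -1.17. The unit psbE, psbF, psbL and psbJ ran from -1.72 for psbE to -0.90 for psbJ in stigma. In psaI, ycf4, cemA and petA the run difference of seedlings was -0.82 for psaI, against -2.09, -1.70 and -1.77 for the other 3. Signals of different probe sets have no common scale, so only differences are set side by side.

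By the polymerase known to read them, 8 members typical of the plastid-encoded enzyme and 6 typical of the nucleus-encoded one were compared as lists. Of the 8, 5 were called lower in stigma and 7 in ovary than in seedling, with medians of -1.41 and -1.49. Of the 6, none was called in stigma and 2 in ovary, with medians of -0.68 and -0.90. Of all tested probe sets, 15.1% were called lower in stigma and 11.7% in ovary. Taken with run D seedlings only, 2 of the 8 were called in stigma and 4 in ovary, with medians of -0.71 and -0.98. None of the 6 was then called in either, and their medians were -0.01 and -0.17. Both lists lay lower in seedlings of run D than in those of run C, by medians of -1.55 and -1.42.

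Most of the measured nuclear genes for the same complexes were also lower in the pistil parts, with exceptions. Of 100 genes in 4 lists of nuclear photosynthesis genes, 18 had a named probe set, and all 18 were tested. In stigma 11 were called lower than in seedling (median -1.41), in ovary 13 (median -1.49), and none was called higher. Between stigma and ovary none of the 18 was called (median 0.005). The largest difference in either tissue was that of NdhL, a nuclear NDH subunit, at -2.41 in stigma and -2.33 in ovary. The antenna gene LHCB4.2 had -2.18 in stigma and -1.89 in ovary. PRK, the Calvin cycle phosphoribulokinase, had -2.10 in stigma and -1.97 in ovary. The antenna gene LHCB4.3 ran the other way, at 1.05 in stigma and 1.01 in ovary, which were not called. Against run D seedlings alone it had 2.67 in stigma (adjusted p = 1.9e-07) and 2.62 in ovary (adjusted p = 2.0e-07). A gamma subunit gene of the ATP synthase, ATPC2, had -0.25 in stigma and 0.40 in ovary, neither called. Between the seedling runs the 18 had a median of -0.21, with 1 called lower, against -0.82 and 21 called for the chloroplast-encoded members.

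Other nuclear lists tied to the plastid were small on this array. Of 5 genes for chlorophyll synthesis and its regulation, 4 were called lower in stigma than in seedling and 2 in ovary. The shares of all tested probe sets were 15.1% and 11.7%. PORB, which makes chlorophyllide in the light, had -2.34 in stigma and -1.58 in ovary, and CHLM, a methyltransferase of the pathway, had -1.91 in stigma and -1.09 in ovary. On the list of plastid ribosomes and translation 2 genes had a probe set. FUG1, a plastid translation initiation factor, was called lower in ovary (-1.14). The other, HCF101, known for iron-sulphur cluster assembly, was not called. Of 8 tested genes for plastid RNA processing and the Clp protease, none was called in either comparison with seedling. The editing factor gene OTP81 was called lower in stigma than in ovary (-1.59, adjusted p = 0.0064). The list of nuclear plastid transcription genes had no named probe set.

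The mitochondrial chromosome is the other organelle genome. Of 19 mitochondrion-encoded probe sets 12 were tested, with medians of 0.53 in stigma and 0.50 in ovary against seedling, and 0.18 between stigma and ovary. None was called lower in any of the 3 comparisons. Of all tested probe sets, 9.51% were called lower in stigma than in ovary. Against seedling, 15.1% were called lower in stigma and 11.7% in ovary. The respiratory subunit gene nad4L was called higher in stigma (1.08) and nad9 in ovary (1.11). The shares of all tested probe sets called higher are given above. With 12 probe sets, these counts cannot be told from such shares, so no contrast with the chloroplast genes is drawn from them. Between the seedling runs the median of the mitochondrion-encoded probe sets was -0.54, with 1 called lower in run D.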

How the data were processed

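Expression was read in 3 stigma, 4 ovary and 4 seedling samples on ATH1 arrays, 1 sample per array, with groups taken from the labels' titles. The descriptions of the stigma samples repeat the ovary text. The deposited values are linear intensities, 1 per probe set, which the authors had scaled so that the 2% trimmed mean of every array is 500.03 to 500.04, as the values show. The sources used here do not name the software, and the files hold no detection calls, so low intensities cannot be told from background. The labels name a Bioarray High Yield RNA Transcript Labeling Kit.

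From these, log2(signal + 17.2) was computed, 17.2 being the 10th percentile. Probe sets above 144.2 (40th percentile) on at least 3 arrays were kept, which left 15524. The 11 arrays entered 1 model, with a mean for each tissue, in limma 3.58.1 in R 4.3.3 (empirical Bayes with trend, 8 residual and 5.19 prior degrees of freedom), and p-values were Benjamini-Hochberg adjusted over all 15524. The fit was tested on simulated data. The number of arrays limits the precision.

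Gene names came from the platform annotation and RefSeq. Of 99 probe sets in the numbered block, 16 had no annotation. Of the members, 8 carry 2 annotation entries of one symbol, as genes of the inverted repeat do. Mitochondrion-encoded genes were found by symbol, since locus identifiers were not paired with them. Members and gene lists were chosen with earlier results of these data known. Any member could be named, and named in any case were the lowest and highest member of each complex, a fixed set of well-known members, and up to 3 called genes of each other list. Alternatives included other pseudocounts, filters and normalizations, run, chip lot and replicate blocks, an RNA quality covariate, and each array left out.

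Same-numbered samples of different tissues did not clearly deviate together more than others did. Their 10 correlations were -0.079 to 0.257, against -0.291 to 0.255 for 30 pairs with different numbers, so numbers were not treated as pairs. Run did go with shared deviation. Between stigma and ovary, arrays of the same run had -0.007 to 0.257 and arrays of different runs -0.291 to -0.026. The main fit holds no term for run, and run as a block is among the alternatives.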

Additional observations from a re-analysis of the deposited data

Results flagged for a closer look

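In 4 of 146 groups of 4 arrays, 1 array stood apart from the other 3 by more than Dixon's 95% critical value. Chance flags about 1 group in 20. The ATP synthase gene atpA had 7841.7 signal units on ovary 2, against 5747.0 to 5880.5 on the other ovaries. The polymerase gene rpoB had 658.1 on ovary 2, against 180.1 to 220.5 on the others. The photosystem II gene psbZ had 4326.7 on ovary 2, against 3221.4 to 3338.9. The cytochrome b559 gene psbE had 1479.9 on ovary 4, against 2391.8 to 2500.4.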

How the results depend on the processing

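Of 783 alternative values of the counts and complex medians, 713 kept their call, or moved by less than the spread between replicates or, for counts, by under 1.5 times. No call of a named member changed direction, but 26 of 609 medians changed sign. Between stigma and ovary these were 4 of photosystem II (-0.13 to -0.01), 8 of the ribosome (-0.21 to -0.06) and 12 of the RNA polymerase (0.01 to 0.21). The others were the polymerase with run D seedlings, at 0.13 in stigma and 0.25 in ovary against seedling. Between stigma and ovary, 1 member was called higher. That count was 9 with chip lot or run as a block, 4 in either of chip lots 1 and 2 taken alone, 5 in run A alone and in run B alone, and 3 with equal array medians or without stigma 1 and ovary 2. It was 0 with the RNA quality covariate or without stigma 1, ovary 1 and seedling 4, and 0 to 11 with 1 array left out. With equal medians, 1132 of 15524 tested probe sets were called higher. For the other fits just listed that number was not counted, so their counts cannot be read as many or few. The 1 member called lower became 2 with those tissues alone, within chip lot 2 and within run B. It became 0 with the covariate, equal medians, a pseudocount of 100, or either set of arrays left out together, and 0 to 2 with 1 array left out. With a replicate block the counts were 1 higher and 2 lower between stigma and ovary, and 34 lower in stigma and 45 lower in ovary against seedling. The replicate numbers did not pair the samples.

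Against seedling, the 26 members lower in stigma were 41 with chip lot as a block, 45 with run C seedlings and 8 with run D seedlings. They were 15 to 34 with 1 array left out. Because seedlings 3 and 4 were alone in chip lot 3, the lot block compares the pistil parts with run C seedlings only. Within lot 1 or lot 2 the seedling side is 1 array of run C. These lot fits are thus no alternative apart from the choice of run C seedlings. The 44 lower in ovary were 18 with run D seedlings and 34 to 51 with 1 array left out. With run D seedlings 1 member was higher in each. Use of seedling runs apart, and of stigma 1 and ovary 2 left out, was chosen after seeing the data.

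Stigma medians against seedling moved with the RNA quality covariate for NDH (-1.12), cytochrome b6f (-1.09) and photosystem I (-1.47). Without stigma 1, ovary 1 and seedling 4, NDH had -1.19. Within chip lot 2 the stigma medians were -1.24 (polymerase), -1.25 (b6f), -1.26 (photosystem I), -1.52 (photosystem II) and -1.28 (ribosome). With lot as a block they were -1.08 (b6f) and -1.28 (ribosome). With run C seedlings they were -1.14 (b6f) and -1.27 (ribosome), and with run D seedlings -0.28 (ribosome). Ovary medians were -1.92 for NDH within lot 1. Within lot 2 they were -1.25 (polymerase), -1.91 (b6f), -1.78 (photosystem I) and -1.73 (photosystem II). The polymerase had -1.05 with lot as a block and with run C seedlings. With run D seedlings b6f had -0.67 and the ribosome -0.31. With quantile normalization the ATP synthase had -1.07 and photosystem I -1.12. Between stigma and ovary, the covariate gave 0.23 for NDH and 0.14 for the ATP synthase, and quantile normalization 0.19. The cause of these shifts was not tested. Equal medians moved the median of all tested probe sets by 0.10 (stigma minus ovary), -0.04 (stigma minus seedling) and -0.13 (ovary minus seedling). Dim members have larger errors, so small differences there could not be detected.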

Other observations

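In the numbered block, 16 probe sets carry no annotation, and 7 of them were tested. One had 1732.1, 1175.8 and 1192.7 signal units in stigmas, 2610.6, 2606.0, 2575.5 and 2173.4 in ovaries and 5506.9, 4632.8, 728.2 and 940.0 in seedlings, and was chosen after its values were seen. The nuclear antenna gene LHCB4.3, also chosen after its values were seen, had 455.9 and 317.8 in seedlings of run D, against 3660.8 and 3740.5 in those of run C.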
